A study of Homo sapiens with 6 samples.

Results

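Folate handling transcripts were measured in LNCaP cells, an androgen-responsive human prostate cancer cell line in which PSMA (prostate-specific membrane antigen, encoded by FOLH1) is abundant, with and without knockdown of PSMA. The group comprised 9 of the 11963 genes named by the platform annotation, those of folate uptake, polyglutamate metabolism and folate use: FOLR1, SLC19A1, FPGS, GGH, TYMS, SHMT1, SHMT2, MTHFD1 and MTHFD2L. Every probe set that the platform annotation pairs with exactly 1 of these symbols was taken, which gave 16 of the 22277 probe sets on the array. The 6 arrays comprised 3 of control cells (LNCaP_untreated) and 3 of PSMA-knockdown cells (LNCaP_PSMAknockdown), all grown in RPMI. The knockdown cells carried a transduced retroviral short hairpin RNA. The labels do not say whether control cells carried an empty vector, whether knockdown cells were a clone or whether replicates were separate cultures. Any p-value below is therefore relative to the variation among these arrays, part of which may be technical.

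PSMA is a membrane carboxypeptidase that removes glutamates from the tails of folate polyglutamates outside the cell, which yields the short-tailed folate that cells take up. Inside the cell, FPGS lengthens the glutamate tail, so that folate is retained and binds its enzymes better, and GGH trims it in the lysosome. The folate cofactor then carries single carbon units, taken largely from serine by the SHMT enzymes and interconverted by the MTHFD enzymes, to the synthesis of thymidylate, purines and methionine.

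The target was lower in every knockdown array. Probe set 205860_x_at, shared by FOLH1 and its near-identical copy FOLH1B, was the brightest of the target in control arrays. It measured 12.53, 12.54 and 12.47 on the log2 intensity scale in control arrays and 10.28, 10.16 and 10.29 in knockdown arrays. The fitted log2 difference, knockdown minus control, was -2.27 (SE 0.06, limma adjusted p = 1.1e-06). The probe set paired with FOLH1 alone, 217483_at, was dimmer and differed by -0.79 (adjusted p = 0.0123). Over all probe sets tested, pairs of arrays from 1 group differed with an SD of 0.147 to 0.175 log2 units, and pairs from different groups with one of 0.363 to 0.387. Of the luminal prostate markers listed, the 6 measured ones were all above the filter level of log2 4, and 4 of them differed by their brightest probe set. KLK3 (log2 difference -0.71) and HOXB13 (-0.25) were lower in knockdown cells, KLK2 (0.41) and TMPRSS2 (0.28) were higher, and KRT8 and KRT18 did not pass. Of 4 leukocyte genes, PTPRC and CD14 lay below the filter level in every array, and CD3E and ITGAM, at mean log2 levels up to 4.57, did not pass. Of 3 endothelial genes, CDH5 lay below it, and PECAM1 and VWF, at up to 5.40, did not pass. The fibroblast list separated the groups, with a summed level of 7.26 to 7.36 in control and 7.50 to 7.72 in knockdown arrays (log2 of summed intensity). That list was carried by COL3A1 through its brightest probe set, 215076_s_at (log2 difference 1.01). Of the other COL3A1 probe sets, 201852_x_at was higher (0.48, limma adjusted p = 0.0277), and 211161_s_at and 215077_at lay below the filter level. COL1A1 did not pass by its brightest probe set (0.02), whereas its 202310_s_at was lower (-0.26, limma adjusted p = 0.0447). Of the 5 fibroblast genes, 2, COL1A2 and LUM, stayed below log2 4. The part of these markers in the results that follow was not tested.

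Control transcripts of the array also separated the groups. Their 5′ probe sets lost signal against their 3′ probe sets in every knockdown array, with log2 differences between groups from -0.97 for the poly-A control dap and -0.82 for beta-actin to -0.10 for GAPDH. The hybridisation controls, 18 probe sets, were lower by a log2 difference of -0.83. Each of these reached p = 0.1 in an exact permutation test, two-sided, the smallest that 3 arrays against 3 allow. Array processing and knockdown thus cannot be told apart in this design, and the position of the members' probe sets along their transcripts was not used here.

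**Figure D1:**
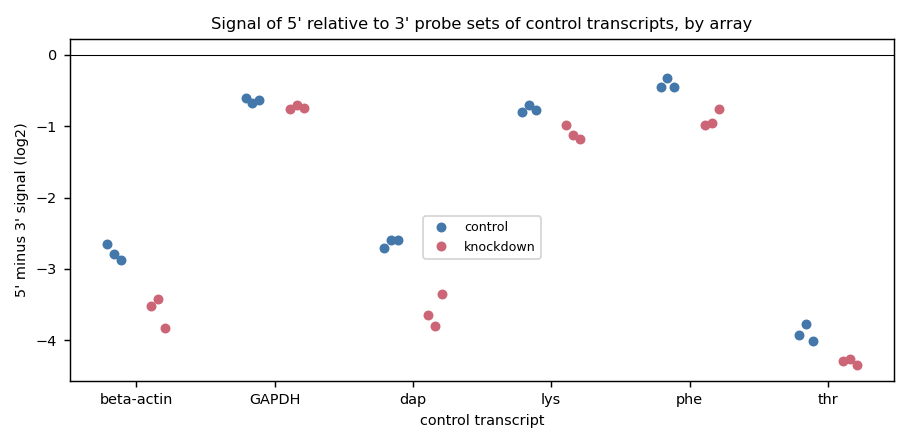
The 5′ minus the 3′ probe set signal (vertical axis, log2) for beta-actin, GAPDH and 4 poly-A control transcripts, with 1 point per array in control (blue) and knockdown (red) cells. All knockdown points lie below all control points for each transcript, most widely for dap and beta-actin.

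Most of the folate genes measured here differed between the groups, upward for uptake, glutamate addition, thymidylate synthesis and the mitochondrial SHMT2, and downward for GGH and MTHFD2L. Of the 16 probe sets, 13 passed the filter of log2 4 in at least 3 arrays, and all 13 reached that level in all 6 arrays. The other 3, 204437_s_at of FOLR1, 217684_at of TYMS and 217304_at of SHMT1, were below it and are described by their values alone. Of the 13 tested, 9 were higher in knockdown cells, 2 were lower and 2 did not pass (limma with Benjamini-Hochberg adjustment over all 15852 probe sets tested, adjusted p under 0.05). Over all probe sets tested, 34.4% passed, 16.6% higher and 17.8% lower. The 9 higher probe sets came from 5 genes, because 3 belonged to SLC19A1 and 3 to SHMT2. Counted by the brightest probe set of each gene, 5 of the 8 tested members were higher and 2 were lower, beside 18.7% and 16.1% of all 9241 genes. The members, like the gene lists below, were chosen with earlier results of these data known. Their counts beside these shares therefore cannot show that the group differs from other genes. The median log2 difference of the 13 was 0.24, and that of all probe sets tested 0.01. Arrays of the groups did not overlap for 11 of the 13, beside 48.3% of all probe sets tested. The count of 9 fell to 5 without control replicate 2, without knockdown replicate 1 or without knockdown replicate 2, whereas the count of 2 lower probe sets was the same with any array left out. In a bulk measurement, fewer cells with a transcript and less of it per cell cannot be told apart.

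**Figure D2:**
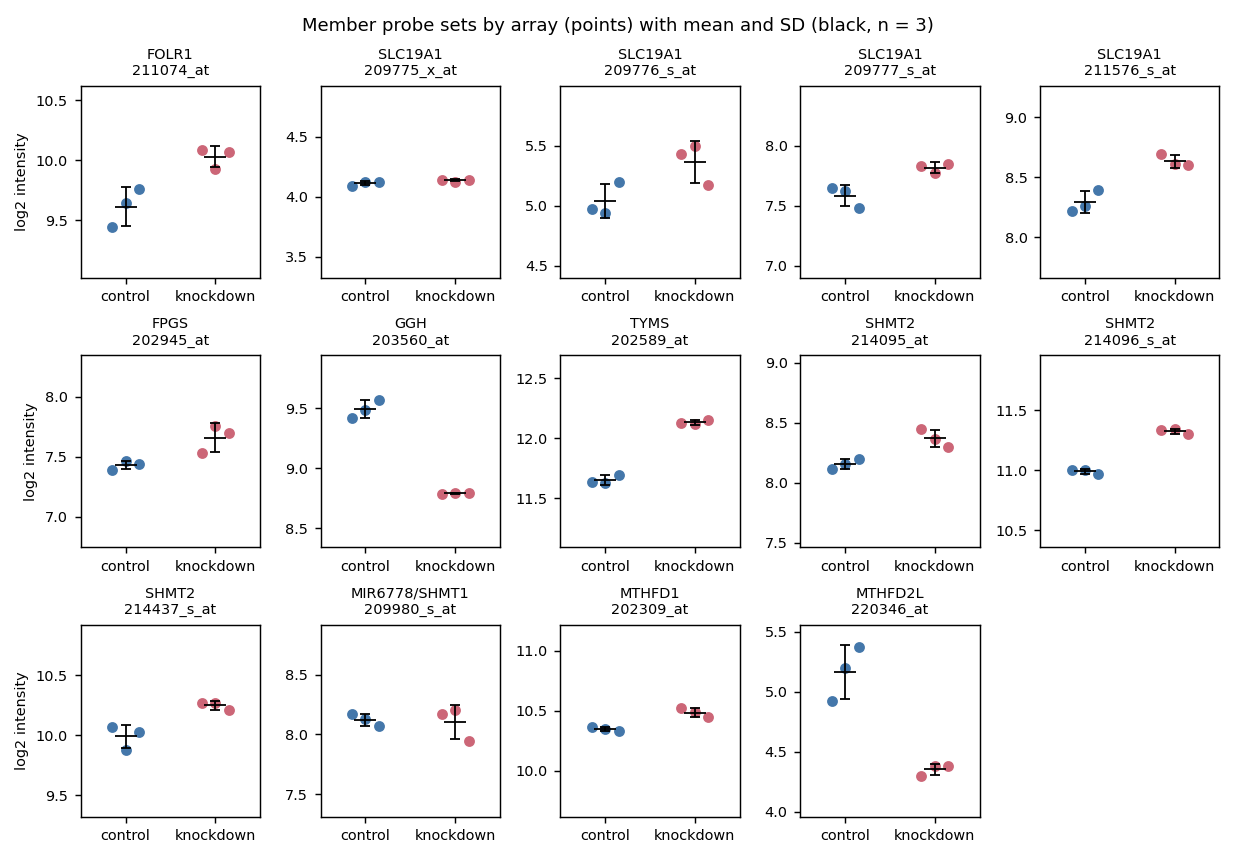
Log2 intensity (vertical axis, the same span of log2 units in each panel) of the 13 member probe sets tested and of the probe set shared by MIR6778 and SHMT1, with 1 point per array and the mean and SD of 3 arrays in black. GGH and MTHFD2L fall from control (blue) to knockdown (red), whereas FOLR1, TYMS and all 3 SHMT2 probe sets lie higher in knockdown arrays without overlap.

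Both folate entry genes of the group were higher in knockdown cells, FOLR1 by its only tested probe set. FOLR1 encodes folate receptor alpha, a membrane-anchored protein that takes up folate by endocytosis. Its probe set 211074_at measured 9.44, 9.64 and 9.76 in control arrays and 10.09, 9.93 and 10.07 in knockdown arrays (log2 intensity). The lowest knockdown array lay above the highest control array, and control arrays spread more widely (SD 0.16, n = 3) than knockdown arrays (SD 0.09, n = 3). The level rose 1.34-fold, a log2 difference of 0.42 with a 95% confidence interval of 0.21 to 0.63 (limma adjusted p = 0.0104). The other FOLR1 probe set, 204437_s_at, was dim in all arrays, at 3.62 to 3.63 in control and 3.57 to 3.92 in knockdown cells. The FOLR1 probe sets thus disagreed on its level, and its rise rested on 211074_at alone.

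SLC19A1 encodes the reduced folate carrier, the main transporter of reduced folates and of methotrexate at the plasma membrane. Its brightest probe set, 211576_s_at, measured 8.22, 8.26 and 8.40 in control and 8.69, 8.61 and 8.60 in knockdown arrays, with no overlap. That was a rise of 1.27-fold (log2 difference 0.34, 95% confidence interval 0.19 to 0.49, limma adjusted p = 0.0059). Probe set 209777_s_at rose by 0.24 on the log2 scale (adjusted p = 0.0226), from between 7.48 and 7.64 to between 7.77 and 7.85. The dimmer 209776_s_at rose by 0.33 (adjusted p = 0.0454), although its lowest knockdown array, at 5.17, lay under its highest control array, at 5.20. The last of the 4, 209775_x_at, lay between 4.09 and 4.14 in all arrays, just above the filter level, and differed by 0.02 (adjusted p = 0.734). The brightest probe set of SLC19A1 passed with any array left out, at adjusted p of at most 0.0245. The call of 209776_s_at was lost without control replicate 1 or 2 or knockdown replicate 1 or 2 (adjusted p = 0.122 to 0.141), and that of 209777_s_at without control replicate 3 or knockdown replicate 1 or 3 (adjusted p = 0.0540 to 0.0633).

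The carrier and the receptor moved by amounts that could not be separated. The within-array log2 ratio of SLC19A1 to FOLR1 was -1.32 ± 0.09 in control and -1.40 ± 0.08 in knockdown arrays (SD, n = 3), and the groups overlapped (exact permutation test, two-sided, p = 0.4). Because that ratio joins different probe sets, only its change between groups can be read, not its size.

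The enzymes that add and remove folate glutamates differed in opposite directions. FPGS, which adds glutamates, measured 7.39, 7.46 and 7.44 in control and 7.53, 7.76 and 7.69 in knockdown arrays (202945_at), so that the groups did not overlap. It rose 1.17-fold, by a log2 difference of 0.23 with a 95% confidence interval of 0.07 to 0.39 (limma adjusted p = 0.0384). This call was lost without any 1 of the control replicates or without knockdown replicate 2 or 3 (adjusted p = 0.0756 to 0.121), and with no filter on low values (adjusted p = 0.0596).

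GGH, the lysosomal hydrolase that shortens polyglutamate tails, was 1.63-fold lower. Its only probe set, 203560_at, measured 9.42, 9.49 and 9.57 in control arrays and 8.78, 8.79 and 8.79 in knockdown arrays. The knockdown arrays were nearly identical (SD 0.01, n = 3) and lay well under the lowest control array. The log2 difference was -0.70, with a 95% confidence interval of -0.83 to -0.57 (limma adjusted p = 1.6e-04), and 4.90% of all probe sets tested differed by more. With each array left out in turn the log2 difference stayed between -0.74 and -0.66. In size, the GGH difference lay below the shifts in 5′ signal of beta-actin and dap. It lay above those of phe (-0.49), thr (-0.40), lys (-0.33) and GAPDH (-0.10). The part of these shifts in it was not tested.

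The FPGS to GGH ratio summarises this pair within each array. It measured -2.03, -2.03 and -2.13 in control and -1.26, -1.04 and -1.10 in knockdown arrays on the log2 scale. The ratio was thus higher in each knockdown array than in any control array, by 0.93 (exact permutation test, two-sided, p = 0.1, the smallest possible; 0.133 after Benjamini-Hochberg adjustment over 4 ratios). Most of that shift came from GGH, whose own difference was -0.70 against 0.23 for FPGS.

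**Figure D3:**
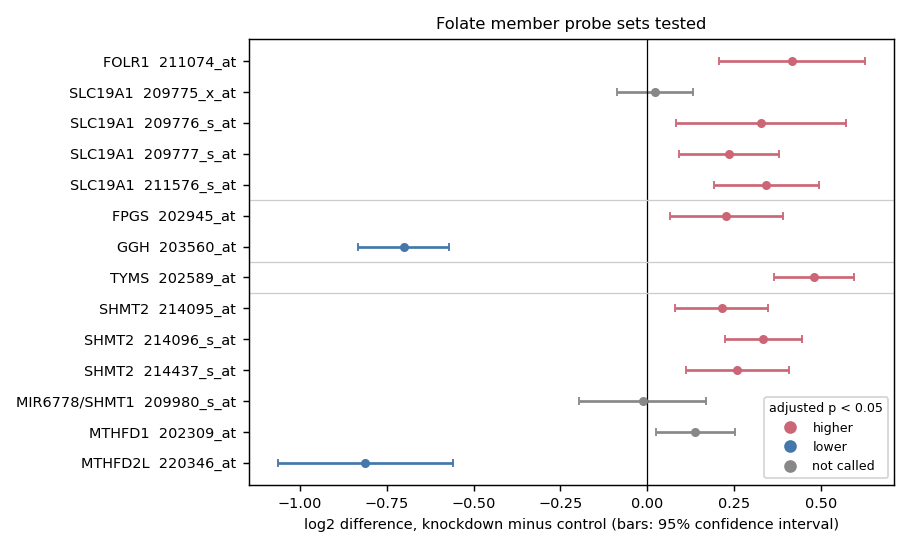
Log2 difference between knockdown and control arrays (horizontal axis) with its 95% confidence interval from limma for each member probe set tested and for the probe set shared by MIR6778 and SHMT1, ordered by role. Entry, glutamate addition, TYMS, SHMT2 and MTHFD1, which did not pass, lie to the right of 0, and GGH at -0.70 and MTHFD2L at -0.81 to the left. The intervals of 209775_x_at of SLC19A1 and of the shared probe set span 0.

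Among the enzymes that use folate, TYMS and SHMT2 were higher, MTHFD2L was lower, and MTHFD1 did not pass; the probe set of SHMT1 alone was too dim to test. Thymidylate synthase, TYMS, makes the DNA precursor thymidylate and is the target of fluorouracil. Its probe set 202589_at measured 11.64, 11.62 and 11.70 in control and 12.12, 12.11 and 12.16 in knockdown arrays. The groups were far apart relative to their spread (SD 0.04 and 0.02, n = 3 each). TYMS rose 1.39-fold, by 0.48 on the log2 scale with a 95% confidence interval of 0.36 to 0.59 (limma adjusted p = 4.2e-04). Its other probe set, 217684_at, lay below the filter level, at 3.82 to 3.87 in control and 3.87 to 3.95 in knockdown arrays.

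TYMS transcription rises when cells enter S phase, so a list of S phase genes was set beside it. Of the 15 tested, 2 rose, 2 fell and 11 did not pass, with a median log2 difference of 0.08, beside 18.7% higher and 16.1% lower over all genes. The replication helicase subunit MCM3 (0.54, adjusted p = 9.0e-04) and the ribonucleotide reductase subunit RRM2 (0.38, adjusted p = 0.00124) rose. The replication licensing factor CDC6 (-0.26, adjusted p = 0.0176) and the GINS complex subunit GINS2 (-0.26, adjusted p = 0.00927) fell. Of the 11 that did not pass, MCM2 differed by 0.20, MCM4 and MCM6 by 0.14, RRM1 by 0.10 and MCM5 by 0.09. CDT1 differed by 0.08, MCM7 by 0.01 and DUT by -0.002. The clamp PCNA differed by -0.13, thymidine kinase TK1 by -0.17 and CCNE2 by -0.19. MCM6 and MCM2 came nearest to passing (limma adjusted p = 0.0514 and 0.0749), ahead of TK1 (0.0855), MCM4 (0.106) and PCNA (0.130). Without control replicate 3 the count of falls was 1, since CDC6 was lost (adjusted p = 0.0509), and without knockdown replicate 3 it was 4.

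Promoter sequences from RefSeq (assembly GRCh38.p14) are shown for TYMS and FPGS, which were among the genes that rose and have 1 start or close starts, and for SHMT1. Windows of 6 of the 9 members were searched, and FOLR1, GGH and SHMT2 were not among them. The chromosome of GGH was skipped in the search, so its absence does not show that no window existed. The windows of SLC19A1, 4 with 28269 bases between the first and the last start, are not shown. Of these, 1 held an E2F match, 2 a GC box and 0 a CCAAT box, as defined below. Also not shown are MTHFD1, whose 1 window held an E-box and a CCAAT box, and MTHFD2L, with a GC box in 1 of 2 windows. Each run covers the 250 bases before the start of the gene, 5′ to 3′ in the gene's direction; FPGS has 3 windows, and the most upstream is shown. Capitals mark matches to an E2F motif (TTTCCCGC, TTTGGCGC or TTTCGCGC), to the CCAAT box (CCAAT), to the E-box CACGTG or to the ATF4 motif TGATGCAA, on either strand.
TYMS, chr18:657403-657652, plus strand: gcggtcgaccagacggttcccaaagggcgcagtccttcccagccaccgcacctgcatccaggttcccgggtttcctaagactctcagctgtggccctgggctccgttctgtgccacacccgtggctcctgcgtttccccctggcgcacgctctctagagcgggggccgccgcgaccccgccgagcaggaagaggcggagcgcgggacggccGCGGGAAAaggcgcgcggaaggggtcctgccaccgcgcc
FPGS, chr9:127802608-127802857, plus strand: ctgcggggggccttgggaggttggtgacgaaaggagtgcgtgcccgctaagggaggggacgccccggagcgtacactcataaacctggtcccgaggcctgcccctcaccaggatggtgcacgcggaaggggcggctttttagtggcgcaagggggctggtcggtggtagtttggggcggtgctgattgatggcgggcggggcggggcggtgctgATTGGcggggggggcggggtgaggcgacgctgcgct
SHMT1, chr17:18363551-18363800, minus strand: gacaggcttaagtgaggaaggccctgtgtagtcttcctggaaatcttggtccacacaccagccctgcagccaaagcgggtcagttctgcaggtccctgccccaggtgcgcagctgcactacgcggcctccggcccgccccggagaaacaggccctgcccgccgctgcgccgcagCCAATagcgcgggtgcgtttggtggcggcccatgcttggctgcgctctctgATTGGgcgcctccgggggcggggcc
The TYMS window held 1 E2F match, on the opposite strand and centred 35 bases before the start, whereas 2.32% of all 35116 promoter windows cut to the same 250 bases held any. The FPGS window shown held 1 CCAAT box and that of SHMT1 held 2, beside 32.0% of windows with at least 1. The FPGS matches depend on the start, since 2 of its 3 windows held a CCAAT box, 2 a GC box and 1 an E-box. FPGS also held 6 matches to the GC box GGGCGG, overlapping in part and left in lower case, against 2 in SHMT1 and 0 in TYMS; 42.6% of windows held any. No match to the ATF4 motif was found in these 3 windows, which says little, since only 0.772% of all windows hold one. These matches describe letters in a window and are not evidence of binding.

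Serine hydroxymethyltransferase moves a carbon unit from serine to folate, in mitochondria as SHMT2 and in the cytosol as SHMT1. All 3 SHMT2 probe sets rose. The brightest, 214096_s_at, measured 11.00, 11.00 and 10.97 in control and 11.33, 11.34 and 11.30 in knockdown arrays, a rise of 1.26-fold (log2 difference 0.33, 95% confidence interval 0.22 to 0.44, limma adjusted p = 0.0017). Probe set 214437_s_at rose by 0.26 (adjusted p = 0.0175) and 214095_at by 0.21 (adjusted p = 0.0244), and in neither did the groups overlap. The calls of these dimmer probe sets did not survive every omission. That of 214437_s_at was lost without control replicate 2 or knockdown replicate 1 or 2 (adjusted p = 0.0523 to 0.0594), and that of 214095_at without control replicate 1 or 2 or knockdown replicate 1 or 2 (adjusted p = 0.0663 to 0.0746).

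SHMT1 has 1 probe set of its own, 217304_at, which lay between 2.86 and 3.19 in all arrays, under the filter level. The brighter 209980_s_at is annotated to both SHMT1 and MIR6778, a microRNA gene inside SHMT1, so it is outside the group as defined, and it was added after its values were seen. It measured 8.17, 8.13 and 8.07 in control and 8.17, 8.21 and 7.95 in knockdown arrays, with overlapping groups. Its log2 difference was -0.01 with a 95% confidence interval of -0.20 to 0.17 (limma adjusted p = 0.917). The within-array ratio of SHMT2 to this probe set was higher in all 3 knockdown arrays than in any control array, by 0.35 on the log2 scale (exact permutation test, two-sided, p = 0.1).

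The MTHFD enzymes interconvert the oxidised and reduced forms of the folate carbon unit. MTHFD1, the cytosolic enzyme with 3 activities, measured 10.37, 10.35 and 10.33 in control and 10.52, 10.49 and 10.45 in knockdown arrays (202309_at). The groups did not overlap, but the log2 difference of 0.14 (95% confidence interval 0.02 to 0.25) did not pass after adjustment over all probe sets (limma adjusted p = 0.0640). It passed with each array centred on its median (adjusted p = 0.0263), with an intensity trend in the variance (0.0162), with array weights (0.0334) and with genes tested by the mean of their probe sets (0.0494).

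MTHFD2L, a mitochondrial dehydrogenase and cyclohydrolase, had the largest difference of all members. Its probe set 220346_at measured 4.92, 5.20 and 5.37 in control arrays and 4.30, 4.38 and 4.38 in knockdown arrays. All knockdown values lay under all control values and close to the filter level of 4. MTHFD2L was 1.75-fold lower, with a log2 difference of -0.81 and a 95% confidence interval of -1.06 to -0.56 (limma adjusted p = 0.0013), and 3.47% of all probe sets tested differed by more. With each array left out it ranged from -0.93 to -0.71. The shifts in 5′ signal of beta-actin and dap were as large, and those of the other control transcripts were smaller. As for GGH, their part in it was not tested. The within-array ratio of MTHFD2L to MTHFD1 fell in all knockdown arrays, from -5.19 ± 0.24 to -6.14 ± 0.08 (SD, n = 3; exact permutation test, two-sided, p = 0.1).

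The other genes of folate and one-carbon metabolism showed no common direction. Of 38 listed genes, 26 had a tested probe set with 1 symbol; 6 rose, 6 fell and 14 did not pass, beside 18.7% higher and 16.1% lower over all genes. Their median log2 difference was -0.02. The other uptake, efflux and carrier genes did not pass: FOLR2 differed by 0.02, the mitochondrial folate carrier SLC25A32 by -0.04, and the exporters ABCC1, ABCC3 and ABCG2 by 0.06, -0.02 and -0.20. The purine synthesis enzymes that consume formyl folate both rose, GART by 0.44 (adjusted p = 0.00145) and ATIC by 0.25 (adjusted p = 0.0101). Averaged over all GART probe sets, its difference was 0.17.

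Folate interconversion was split. The mitochondrial MTHFD2, the close relative of MTHFD2L, fell, with a log2 difference of -0.23 (adjusted p = 0.0278). ALDH1L1, which oxidises formyl folate, rose by 0.39 (adjusted p = 0.0316). Neither call held under every omission of an array: MTHFD2 was lost without control replicate 2 or 3 or any knockdown replicate (adjusted p = 0.0572 to 0.0793), and ALDH1L1 without control replicate 1 or 3 or knockdown replicate 1 or 3 (adjusted p = 0.0810 to 0.0996). ALDH1L1 was also lost with array weights (0.26, adjusted p = 0.0976) and with the replicate number as a block (adjusted p = 0.0572).

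In the methionine cycle, the glycine methyltransferase GNMT was 2.02-fold higher, at 7.14 ± 0.07 in control and 8.15 ± 0.12 in knockdown arrays (log2 intensity, SD, n = 3; limma adjusted p = 1.0e-04). The methionine adenosyltransferase subunits MAT2A (0.23, adjusted p = 0.00959) and MAT2B (0.21, adjusted p = 0.0279) rose. CBS, which diverts homocysteine to cystathionine, fell by 0.65 (adjusted p = 3.5e-04). The folate-dependent methionine synthase MTR differed by 0.00 and the hydrolase AHCY by -0.02, and neither passed. MAT2B was lost without control replicate 1 or 2 or knockdown replicate 2 or 3 (adjusted p = 0.0596 to 0.0950), and MAT2A when its probe sets were averaged (0.09, adjusted p = 0.132).

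Genes that supply serine and glycine carbon had 4 falls and 0 rises in 7, with a median log2 difference of -0.31, beside 18.7% higher and 16.1% lower over all genes. The serine synthesis enzymes PSAT1 (-0.89, adjusted p = 1.3e-04) and PSPH (-0.33, adjusted p = 0.0217) fell, as did the glycine cleavage subunits GLDC (-0.31, adjusted p = 0.0194) and DLD (-0.38, adjusted p = 0.00172). The other subunits of that complex, GCSH (0.05, adjusted p = 0.464) and AMT (-0.12, adjusted p = 0.626), did not pass. PHGDH, the first enzyme of serine synthesis, differed by -0.20 and did not pass (adjusted p = 0.0909). PSPH was lost without control replicate 1 or 3 or knockdown replicate 1 (adjusted p = 0.0570 to 0.0641) and GLDC without control replicate 3 (0.0610) or knockdown replicate 1 (0.0553). Without control replicate 3 or without knockdown replicate 1, the 6 falls of the whole list were 3.

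**Figure D4:**
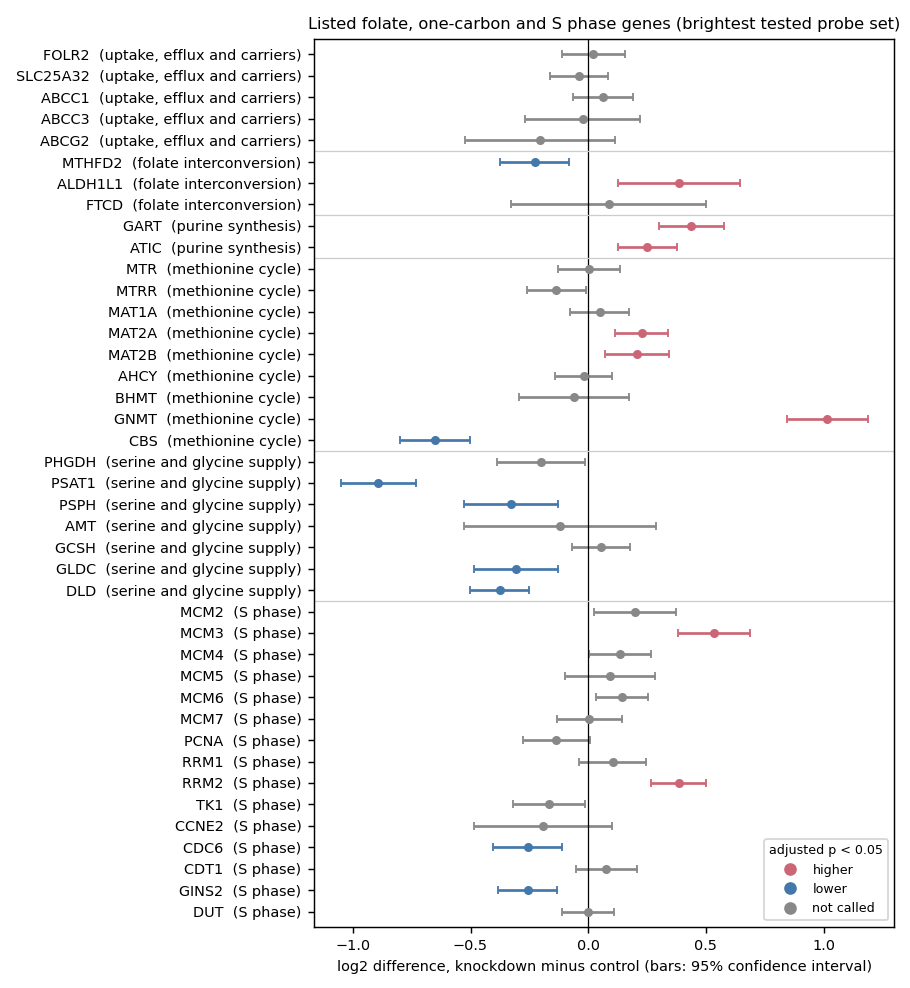
Log2 difference between knockdown and control arrays (horizontal axis) with its 95% confidence interval from limma for the listed folate, one-carbon and S phase genes, each by its brightest tested probe set and grouped by role. GNMT at 1.02 and PSAT1 at -0.89 are the widest apart. The uptake, efflux and carrier genes are all in grey, with ABCG2, at -0.20, the furthest of them from 0.

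The genes whose values followed the largest member changes most closely were found by Euclidean distance over the 6 arrays, after each was centred on its mean, among 9240 genes. Those nearest to MTHFD2L were the kinetochore motor CENPE, the helicase WRN and SCAPER, with log2 differences of -0.81, -0.79 and -0.91. Those nearest to GGH were VWA8, PDE6D and BANF1 (-0.68, -0.65 and -0.66), and those nearest to TYMS were ECHDC2, the histone demethylase KDM3A and the ceramide synthase CERS6 (0.47, 0.46 and 0.50). With 6 arrays in 2 groups, such likeness mostly restates the difference between the groups.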

How the data were processed

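Total RNA was extracted with Trizol and 2 ug was made into biotinylated cRNA for 1-colour Affymetrix arrays, per the labels' protocols. The authors deposited linear probe set intensities made with GCRMA, which corrects background, normalizes arrays and summarises probes, per the submitters' processing notes; no version or settings were given in the sources used here. Intensities ran from 3.82 to 22631, with array medians of 48.2 to 50.3. Arrays carry no read depth, and their number limits the precision.

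Probe sets were named from the platform annotation, checked against RefSeq gene names, which changed 0 symbols. Of 22277 probe sets, 62 were array controls and were left out; 19070 had 1 symbol, 1043 several and 2164 none, array controls included. On the log2 scale, 15852 probe sets had a value of 4 or more (an intensity of 16) in at least 3 arrays and were tested. Knockdown was compared with control by lmFit and eBayes of limma 3.58.1 in R 4.3.3, with p-values adjusted over all 15852 by Benjamini-Hochberg. For gene counts the probe set with the highest mean stood for its gene, over the 9241 genes with 1 symbol. Confidence intervals are limma's and are not adjusted. The fit was also run on simulated arrays with independent noise for each probe set. These held no shift between groups like that of the control transcripts, so the run says nothing about such a shift. Ratios and control transcripts were compared by exact permutation tests.

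The members and lists were chosen with earlier results of these data known. All probe sets of the members were named, as were listed genes with an adjusted p under 0.05, up to 6 per direction and list, and for the 3 largest member changes the 3 nearest genes. Other genes named without a call, and the markers, illustrate their lists and were chosen after their values were seen. Alternatives covered the filter, a floor, normalization, the unit tested, probe set kind, array weights, the variance model, a block for the replicate number and leaving out each array.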

Additional observations from a re-analysis of the deposited data

How the results depend on the processing

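Over 17 alternatives each, FOLR1, GGH, TYMS and MTHFD2L kept their direction and their call, as did the brightest probe sets of SLC19A1 and SHMT2 over 16. With all probe sets of a gene averaged, dim ones included, TYMS differed by 0.26 and FOLR1 by 0.25, and SHMT2 differed by 0.21 and PSPH by -0.53 without _x_at and _s_at probe sets, all still called. Of 210 comparisons of member probe sets under alternatives, 183 kept direction and side of the threshold, 23 lost the call and 3, all of MTHFD1, gained it. The reversal was in 209775_x_at of SLC19A1, at -0.00629 under quantile normalization, which was not called in either setting. The count of 9 higher member probe sets was 5 to 7 with an array left out, and 4 without _x_at and _s_at probe sets, which removes 5 of those called. Without these kinds, 1311 of all probe sets were higher and 1155 lower, against 2624 and 2823, since fewer were tested. The pathway list's count of falls was 3 to 5 with an array left out, and its median difference 0.00636 with arrays centred on their median, -0.0900 without _x_at and _s_at probe sets and from -0.0355 to 0.00367 with an array left out. S phase rises were 4 with centred arrays, with an intensity trend and with array weights. S phase falls were 4 with the probe sets of a gene averaged and with an intensity trend, 1 without _x_at and _s_at probe sets and 1 to 4 with an array left out. The S phase median was -0.0667 with probe sets averaged. The cause of these shifts was not tested. With the replicate number as a block, 7 member probe sets were higher and 2 lower, and the calls of 209776_s_at of SLC19A1 (adjusted p = 0.0937) and 214095_at of SHMT2 (adjusted p = 0.0527) were lost. Same-numbered arrays deviated together with correlations of 0.11, -0.02 and 0.12, beside -0.14 to 0.04 for the other pairs across groups. Those of replicates 1 and 3 were thus the highest, and that of replicate 2 was not. The main test did not pair the arrays, and whether the numbers mark a shared batch was not tested. The use of 209980_s_at for SHMT1 was chosen after seeing the data. Signals near the filter level, as for MTHFD2L, limit how far a fall can be measured.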
